A study of Mus musculus with 2 samples.

Results

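Metallothioneins and zinc transporters were followed through 7 genes of the 32285 in the count tables: the metallothioneins Mt1, Mt2 and Mt3, the zinc-sensing transcription factor Mtf1, the zinc exporters Slc30a1 and Slc30a4, and the zinc importer Slc39a10. The genes were found by symbol. The set itself was chosen by their measured levels and ratios in these same libraries, so their levels and differences are given as a description, with no test. All 7 had at least 50 unique molecular identifiers (UMIs, each standing for 1 captured transcript) over both libraries, the minimum used below for a gene to enter a count.

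The cells were GL261, a mouse glioma cell line on a C57BL/6 background that the labels call an astrocytoma. Adherent cells grew in DMEM supplemented with 10% FBS and antibiotics (Penicillin-Streptomycin) and were trypsinized near confluency. Neurospheres grew in that medium plus B-27, Epidermal Growth Factor and Fibroblast Growth Factor, the last 2 at 20 ng/mL each, and were, by the labels, trypsinized and broken up by pipetting after 12 days. Cells of both cultures were frozen in medium with DMSO before shipping, and 1 single-cell 3' library was made from each, so no difference below has a replicate check and culture cannot be told apart from library. The serum, present in both media, and the B-27 supplement, present in 1 of them, were not measured for zinc.

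Metallothioneins are small cysteine-rich proteins that bind zinc and copper and buffer them in the cytosol. When free zinc rises, Mtf1 binds metal response elements in promoters and switches on metallothionein genes and the exporter gene Slc30a1. Exporters of the Slc30 (ZnT) family move zinc out of the cytosol, into vesicles or out of the cell, and importers of the Slc39 (ZIP) family move it in. Mt1 and Mt2 are made in most tissues and also respond to glucocorticoids and oxidative stress, while Mt3 is best known from the brain and Mt4 from stratified epithelia.

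The metallothionein genes lie side by side on the plus strand of chromosome 8 in the GENCODE annotation of GRCm38, the build called mm10 in the submitters' processing notes. Mt3 (ENSMUSG00000031760) was annotated at chr8:94152607-94154146, Mt2 (ENSMUSG00000031762) at chr8:94172664-94173568 and Mt1 (ENSMUSG00000031765) at chr8:94179082-94180327. The start of Mt3 was 20.1 kb from that of Mt2, and Mt2 and Mt1 started 6.4 kb apart. The other members were spread over the genome, with Slc39a10 (ENSMUSG00000025986) at chr1:46807544-46892852 on the minus strand, Slc30a1 (ENSMUSG00000037434) at chr1:191906767-191913247 on the plus strand, Slc30a4 (ENSMUSG00000005802) at chr2:122681233-122702663 on the minus strand and Mtf1 (ENSMUSG00000028890) at chr4:124802104-124849800 on the plus strand.

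The bases before the start of 5 members are shown because the factor known to drive metallothionein genes reads a short motif there. Each line gives, 5' to 3' on the strand of the gene, the 250 bases before the RefSeq start in GRCm38.p6, with the core of the metal response element in capitals (TGCACNC or TGCGCNC on either strand; on the other strand it reads GNGTGCA or GNGCGCA). RefSeq starts differ by some bases from the GENCODE starts for Mt1, Mt2 and Slc30a1. The windows were chr8:94178839-94179088 for Mt1, chr8:94172368-94172617 for Mt2, chr8:94152357-94152606 for Mt3, chr1:191906531-191906780 for Slc30a1 and chr2:122702664-122702913, on the minus strand, for Slc30a4.
Mt1: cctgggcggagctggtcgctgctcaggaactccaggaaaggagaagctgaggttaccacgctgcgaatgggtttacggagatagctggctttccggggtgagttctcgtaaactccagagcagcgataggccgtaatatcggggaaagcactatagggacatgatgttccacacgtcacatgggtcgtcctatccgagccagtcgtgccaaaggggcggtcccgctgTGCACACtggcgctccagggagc
Mt2: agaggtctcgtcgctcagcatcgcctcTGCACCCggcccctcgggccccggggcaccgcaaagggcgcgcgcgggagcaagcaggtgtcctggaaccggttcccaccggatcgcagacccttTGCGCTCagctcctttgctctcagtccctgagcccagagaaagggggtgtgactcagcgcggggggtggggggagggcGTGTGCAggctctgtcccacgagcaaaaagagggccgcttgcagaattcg
Mt3: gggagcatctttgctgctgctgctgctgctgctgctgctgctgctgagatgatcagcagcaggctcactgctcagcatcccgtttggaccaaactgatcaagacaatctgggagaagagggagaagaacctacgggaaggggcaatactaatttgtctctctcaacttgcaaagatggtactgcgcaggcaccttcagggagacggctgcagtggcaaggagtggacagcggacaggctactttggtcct
Slc30a1: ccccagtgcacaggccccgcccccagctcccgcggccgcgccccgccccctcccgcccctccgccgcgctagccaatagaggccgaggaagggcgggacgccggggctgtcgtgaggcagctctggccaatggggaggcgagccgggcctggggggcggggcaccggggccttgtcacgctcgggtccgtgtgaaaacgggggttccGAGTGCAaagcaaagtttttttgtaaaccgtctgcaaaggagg
Slc30a4: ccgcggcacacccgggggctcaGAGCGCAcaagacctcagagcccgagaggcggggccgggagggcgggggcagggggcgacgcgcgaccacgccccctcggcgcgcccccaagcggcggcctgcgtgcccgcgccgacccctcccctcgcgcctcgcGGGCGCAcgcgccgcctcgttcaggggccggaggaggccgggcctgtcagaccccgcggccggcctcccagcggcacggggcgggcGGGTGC

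With the 50 bases after the start included, the 300-base window held 4 cores in Mt2, 3 in Mt1, 3 in Slc30a4, 2 in Slc30a1 and 1 in Mt3. Among 32851 RefSeq promoter windows of that length, 25.7% held at least 1 core, 7.11% at least 2, 1.97% at least 3 and 0.517% at least 4. Before the RefSeq start itself, Mt2 had 3 cores, Mt1 had 1, Slc30a1 had 1 and Mt3 had 0. Slc30a4 had 2 there and a further one across the start, of which only the first bases are in the line above. No core was found in the window of Mtf1 or in either of the 2 windows given for Slc39a10. The Mtf1 window, chr4:124802299-124802548 before its RefSeq start, lay past the GENCODE start at 124802104. Those of Slc39a10, chr1:46925777-46926026 and chr1:46853619-46853868, lay upstream of and inside the annotated gene, whose GENCODE start is 46892852. The GENCODE starts of these 2 genes were therefore not searched. The cores are matches of letters, not tests of binding, and the Mt3 window differed from those of Mt1 and Mt2 in having its single core after the start. In the Mt1 window the other 2 cores lay just after the start, at bases 3 to 9 and 21 to 27. The longest annotated Mt1 transcript had 1085 bases, against 511 for Mt2. Starts of any shorter Mt1 transcripts were not searched, so cores after this start may lie before another.

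Before filtering, the libraries held 68531063 UMIs in 5764 adherent barcodes and 82832873 UMIs in 4951 neurosphere barcodes, and 5051 and 4276 cells were kept, with a median of 8260 and 13198.5 UMIs per cell. Levels are in CPM, the UMIs of a gene scaled to the total of the kept cells after mitochondrial and ribosomal protein genes were removed. Intervals are exact, at 95%, and cover counting error only. The barcode sequences overlapped at 12 of the called and 9 of the kept cells, and every log2 fold change of a member moved by at most 0.01 without them. Of 10 astrocyte markers, Aqp4 and Sox9 had 0 UMIs in both libraries (a count of 0 allows up to 0.0648 CPM in adherent cells, 0.0462 CPM in neurosphere cells) and Gfap had 30 and 27 UMIs, while Slc1a3 (370 and 80.5 CPM) and S100b (161 and 255 CPM) were abundant. Aldh1l1, Aldoc, Gja1 and Glul ranged from 3.63 to 20.5 CPM in adherent cells, from 5.39 to 41.7 CPM in neurosphere cells, and Slc1a2 had 4 and 2 UMIs. Some astrocyte markers were thus at or near 0 and others present, and the cells are called here by their culture only.

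Mt1 and Mt2 transcripts were abundant in both cultures, and on the scale used here the composition of the metallothionein pool differed more than its size. Summed over Mt1, Mt2 and Mt3, the level was 2382 CPM in adherent cells against 2417 CPM in neurosphere cells. The log2 fold change of the sum (neurosphere over adherent) was 0.02 (0.01 to 0.03), where the median over all genes with at least 50 UMIs was 0.32. That interval does not cover the choice of scaling, and the sum was not recomputed under another. Mt1 made up 58.7% of the summed metallothionein UMIs in adherent cells (58.4 to 59.0) and 75.1% in neurosphere cells (74.9 to 75.3). Mt2 made up 34.4% (34.1 to 34.7) and 24.5% (24.3 to 24.7). Mt3 went from 6.87% (6.72 to 7.02) to 0.452% (0.419 to 0.486). The neurosphere pool thus held a larger part of Mt1 and smaller parts of Mt2 and Mt3.

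**Figure D1:**
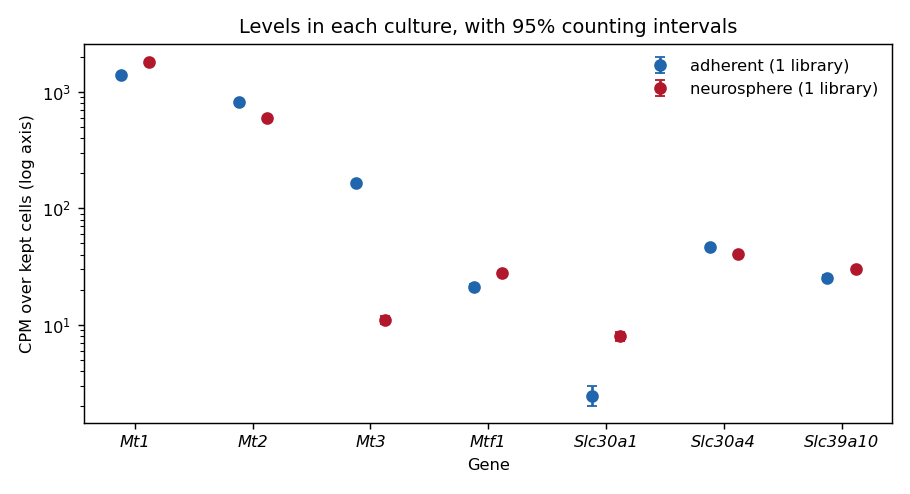
Levels of the 7 genes in CPM (log axis) in the adherent and the neurosphere library, 1 point per library, with bars for the 95% counting interval, which is narrower than most points. Mt3 stands at 164 CPM in adherent cells against 10.9 CPM in neurosphere cells and Slc30a1 at 2.46 and 7.96 CPM, and the other 5 pairs of points lie close together.

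Mt3, the brain metallothionein, differed most among the 7 genes. The adherent library held 7579 UMIs (164 CPM) and the neurosphere library 709 UMIs (10.9 CPM), which is 15.0-fold lower in neurosphere cells, with a log2 fold change of -3.91 (-4.02 to -3.79). Mt2 held 37918 UMIs (819 CPM) and 38423 UMIs (592 CPM), a log2 fold change of -0.47 (-0.49 to -0.45). Mt1 held 64770 UMIs (1399 CPM) and 117832 UMIs (1814 CPM), a log2 fold change of 0.38 (0.36 to 0.39). The 3 neighbouring genes therefore had 3 different ratios between the cultures.

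The ratio of a typical gene was not 0 on this scale: over the 14654 genes with at least 50 UMIs, the median log2 fold change was 0.32. Against that median, Mt1 was 0.05 higher on the log2 scale and Mtf1 0.08 higher, so both stood at the typical ratio. Mt2 lay at -0.79 against the median, Slc30a4 at -0.51 and Mt3 at -4.23. Other scalings moved the median itself, to 0.11 with TMM scaling and to 0.54 when the total included mitochondrial and ribosomal genes. The direction for Slc30a4 depended on this choice, with a log2 fold change of -0.19 (-0.27 to -0.10) on the scale used here and 0.03 with those genes in the total. The other 6 members had the same sign under every scaling run.

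Of the zinc transporters, Slc30a1, the exporter at the plasma membrane and itself a known target of Mtf1, was higher in neurosphere cells. It held 114 UMIs (2.46 CPM) in the adherent library and 517 UMIs (7.96 CPM) in the neurosphere library, 3.23-fold higher, with a log2 fold change of 1.69 (1.40 to 2.00). Its level was the lowest of the 7 genes in UMIs in both libraries. Slc30a4, which loads zinc into vesicles, held 2139 UMIs (46.2 CPM) and 2635 UMIs (40.6 CPM). Slc39a10, an importer at the plasma membrane, held 1167 UMIs (25.2 CPM) and 1963 UMIs (30.2 CPM), a log2 fold change of 0.26 (0.16 to 0.37). Mtf1 held 978 UMIs (21.1 CPM) and 1811 UMIs (27.9 CPM), a log2 fold change of 0.40 (0.29 to 0.51). On the scale used here the cultures differed by less than 1.5 times for these 3 genes, and Slc39a10 and Mtf1 lay close to the median of all genes. With mitochondrial and ribosomal genes in the total, Mtf1 passed 1.5 times, with a log2 fold change of 0.62.

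Past a 2-fold difference, 1 of the 7 members was higher in neurosphere cells (Slc30a1), 1 was lower (Mt3) and 5 were within it. Over all 14654 genes, 21.7% were more than 2-fold higher and 11.7% more than 2-fold lower. With TMM scaling these shares were 16.1% and 14.5%, and with mitochondrial and ribosomal genes in the total they were 29.5% and 9.38%. The members' counts are too few to be read against these shares.

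The other genes of zinc handling were taken from lists of 4 metallothioneins, 10 exporters and 14 importers, which with Mtf1 make 29 genes. Of these, 22 had at least 50 UMIs, 3 were more than 2-fold higher in neurosphere cells, 4 were more than 2-fold lower and 15 lay within 2-fold, with a median log2 fold change of 0.26 beside 0.32 over all genes. With TMM scaling, 1 of the 3 higher genes, Slc30a1, stayed past 2-fold, and with mitochondrial and ribosomal genes in the total 4 were more than 2-fold higher. The shares of higher and lower genes in the background are those given above.

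Among the metallothioneins, Mt4 was scarce and lower in neurosphere cells, with 103 UMIs in adherent and 44 UMIs in neurosphere cells and a log2 fold change of -1.72 (-2.26 to -1.19). Its neurosphere UMIs came from 13 cells. Over the 4 metallothioneins, 2 were more than 2-fold lower and 0 more than 2-fold higher, and the median log2 fold change was -1.09. The protein-coding genes that flank the metallothioneins within 100 kb did not share its low ratio, with a log2 fold change of 0.18 (-0.08 to 0.45) for Bbs2 on the Mt4 side and 0.87 (0.79 to 0.95) for Nup93 on the Mt1 side.

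Among the exporters, 6 of 10 had at least 50 UMIs, 2 were more than 2-fold higher and 0 more than 2-fold lower, and the median log2 fold change was 0.84. With TMM scaling 1 exporter was more than 2-fold higher, and with mitochondrial and ribosomal genes in the total 3 were. Slc30a5, which carries zinc into the early secretory pathway, was the second gene past 2-fold, at 26.7 CPM in adherent cells against 56.2 CPM in neurosphere cells (log2 fold change 1.07, 0.98 to 1.17). Its interval reached below 2-fold. Slc30a7 of the same compartment stood at 0.94 (0.82 to 1.06), Slc30a9, linked to mitochondria, at 0.75 (0.65 to 0.85) and Slc30a6, the partner of Slc30a5, at 0.36 (0.26 to 0.46). Slc30a4 was the only one of the 6 with a value below 0 on this scale and with TMM scaling, and had 0.03 with mitochondrial and ribosomal genes in the total. Slc30a2, Slc30a3, Slc30a8 and Slc30a10 had at most 8 UMIs in a library.

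Among the importers, 11 of 14 had at least 50 UMIs, 1 was more than 2-fold higher and 2 more than 2-fold lower, with a median log2 fold change of 0.08. The importers past 2-fold lower were Slc39a4, which takes up dietary zinc in the gut, at 44.3 CPM in adherent cells against 10.7 CPM in neurosphere cells (-2.05, -2.17 to -1.92), and Slc39a14, which also carries iron and manganese, at 12.1 and 5.07 CPM (-1.26, -1.46 to -1.06). Slc39a7, which releases zinc from the endoplasmic reticulum, stood at the 2-fold line with 49.7 and 99.8 CPM (1.01, 0.94 to 1.07). Slc39a10 lay in the middle of the importers, beside Slc39a11 at 0.27 (0.15 to 0.38). The remaining importers ranged from -0.62 for Slc39a3 to 0.70 for Slc39a9.

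**Figure D2:**
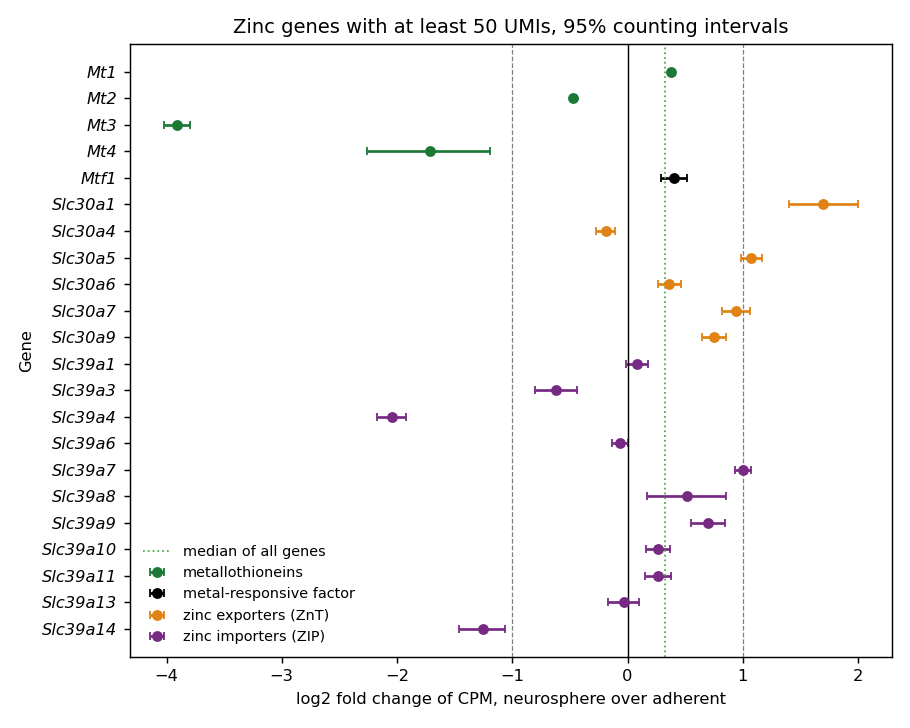
Log2 fold changes of CPM (neurosphere over adherent) of the 22 zinc genes with at least 50 UMIs, coloured by family, with 95% counting intervals, dashed lines at 2-fold and a dotted line at the median of all genes. Mt3 lies farthest to the left at -3.91 and Slc30a1 farthest to the right at 1.69, and 5 of the 6 exporters lie to the right of 0, as all 6 would with mitochondrial and ribosomal genes in the total.

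Genes of other pathways that bear on metallothioneins were counted in the same way, beside the 21.7% of all genes more than 2-fold higher and 11.7% more than 2-fold lower. Of 9 glucocorticoid-induced genes with at least 50 UMIs, 0 were more than 2-fold higher and 5 more than 2-fold lower, with a median log2 fold change of -1.09. They ran from Klf9 at -2.02 (-2.21 to -1.82) and Errfi1 at -1.25 (-1.35 to -1.15) to Per1 at 0.70 (0.51 to 0.90) and Tsc22d3 at 0.82 (0.72 to 0.93), and several of these genes are also known to respond to other signals. Of 12 copper-handling genes, 2 were more than 2-fold higher and 3 more than 2-fold lower. At the low end stood Atox1, a copper chaperone, at -1.24 (-1.26 to -1.22) and Commd1 at -1.20 (-1.23 to -1.17), and at the high end the copper ATPase Atp7b at 2.94 (2.33 to 3.61) and Slc31a2 at 2.72 (2.57 to 2.87). Of 9 iron-handling genes, 3 were more than 2-fold higher and 3 more than 2-fold lower, from the ferritin heavy chain Fth1 at -1.68 (-1.69 to -1.67) and Hmox1 at -1.18 (-1.23 to -1.13) to the transferrin receptor Tfrc at 1.10 (1.00 to 1.20) and Ireb2 at 1.20 (1.08 to 1.31). With TMM scaling, 0 iron genes were more than 2-fold higher and 4 more than 2-fold lower. With mitochondrial and ribosomal genes in the total, 3 glucocorticoid-induced, 1 copper and 1 iron gene were more than 2-fold lower, and 1, 3 and 3 more than 2-fold higher. The copper list had genes past 2-fold in either direction under all 3 scalings, and the iron list under 2 of them. Their part in the metallothionein levels was not tested.

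Cell by cell, Mt1 was near universal in both cultures, Mt2 was missing from more neurosphere cells, and Mt3 was carried by a minority. Because neurosphere cells were deeper, each cell was thinned to 5000 UMIs, which left 4464 adherent and 4196 neurosphere cells and dropped 587 and 80 as too shallow. At this depth, Mt1 was detected in 97.7% of adherent cells (97.2 to 98.1) and 98.9% of neurosphere cells (98.5 to 99.2), from 98.4% and 99.8% before thinning. Mt2 had a UMI in 92.4% (91.6 to 93.2) and 80.9% (79.6 to 82.0), from 95.2% and 91.7%. Mt3 had a UMI in 31.1% (29.7 to 32.5) and 2.74% (2.27 to 3.28), from 40.9% and 5.94%. With a single cell line in both libraries, free RNA in the droplets could not be gauged from cells known to lack these genes.

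The number of UMIs per thinned cell spread widely for the metallothioneins. The median thinned cell had 5 UMIs of Mt1 in adherent and 8 in neurosphere cells, with the 10th and 90th percentiles at 2 and 12 and at 3 and 17. The 99th percentile of Mt1 was 33 in both cultures, so the cultures differed in the middle of the distribution and met in the upper tail. For Mt2 the medians were 3 and 2 and the 99th percentiles 18 and 14. For Mt3 the median was 0 in both, the 99th percentile 11 and 1, and the richest cell held 34 and 17.

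**Figure D3:**
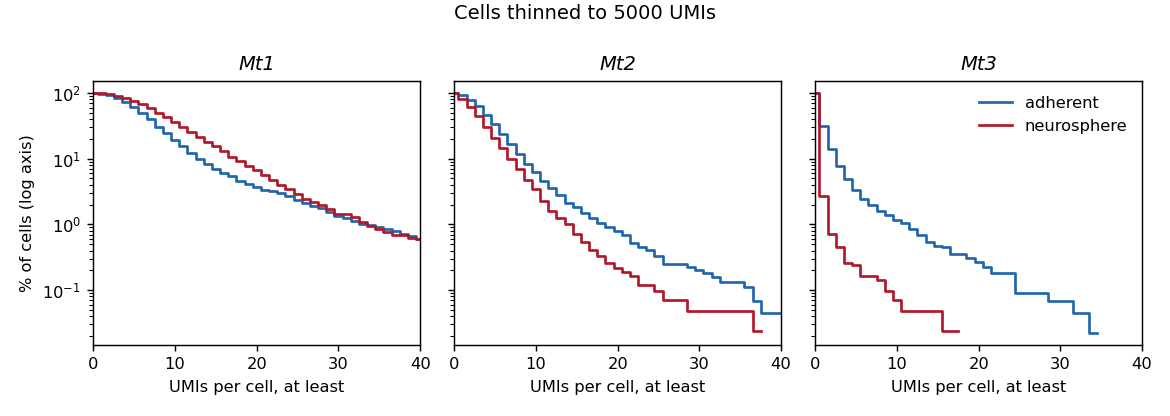
Share of thinned cells (%, log axis) with at least the number of UMIs on the x axis, for Mt1, Mt2 and Mt3 in adherent and neurosphere cells, each cell at 5000 UMIs. The neurosphere curve lies above the adherent one over most of the range of Mt1 and meets it at the right, below it over most of the range of Mt2, and far below it for Mt3 (31.1% against 2.74% at 1 UMI).

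The variance over cells divided by the mean, which is near 1 when transcripts scatter at random over cells of equal depth, was 6.01 and 5.47 for Mt1 in adherent and neurosphere cells, 3.34 and 3.12 for Mt2 and 6.00 and 5.14 for Mt3. Slc30a4 stood at 1.52 and 1.33. Mtf1, Slc30a1 and Slc39a10 ranged from 0.988 to 1.17. Mt1, Mt2 and Mt3 were thus unevenly shared among cells in both cultures. For Mtf1, Slc30a1 and Slc39a10, with means of 0.0123 to 0.152 UMIs per thinned cell, counts are so low that a value near 1 does not show an even spread, and it is not compared with that of the metallothioneins.

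The UMIs of Mt3 came from few cells. In the kept cells before thinning, 50% of its UMIs came from 225 of 5051 adherent cells and from 21 of 4276 neurosphere cells. For Mt1 the same part came from 970 and 917 cells. The tenth of adherent cells with most Mt3 held 68.6% of its UMIs, beside 35.0% for Mt1 and 33.1% for Mt2. Such shares rise as a gene's mean count falls, and Mtf1, with a variance over mean of 1.02, held 63.5% by the same measure, so they do not show that Mt3 was more unevenly shared than the more abundant Mt1 and Mt2. Mt4, with its 103 and 44 UMIs, drew 50% of them from 26 adherent and 2 neurosphere cells. The neurosphere level of Mt3 of 10.9 CPM therefore stood for a few cells rich in it and many without a UMI.

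For the other members, the share of cells with a UMI changed with thinning. Slc30a4 was detected in 26.4% of adherent cells against 33.2% of neurosphere cells before thinning, and in 17.1% (16.0 to 18.2) and 15.3% (14.2 to 16.4) after it. Mtf1 went from 17.1% and 32.2% to 10.5% (9.58 to 11.4) and 12.5% (11.5 to 13.6), and Slc39a10 from 19.6% and 31.8% to 11.7% (10.8 to 12.7) and 13.1% (12.1 to 14.2). Slc30a1 kept a gap, with 2.24% and 11% before and 1.23% (0.929 to 1.60) and 4.10% (3.52 to 4.74) after thinning. All of these means lay well under 1 UMI per thinned cell.

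Mt1 and Mt2 varied together from cell to cell. Over thinned cells of a library, Spearman's rho of Mt1 and Mt2 was 0.446 in 4464 adherent cells and 0.558 in 4196 neurosphere cells. Cells share their library, so this is a description with no p. In both libraries each was the other's closest partner, out of 5709 genes in adherent and 6657 in neurosphere cells that had a UMI in at least 10% of thinned cells. Within clusters of at least 100 thinned cells, rho ran from 0.242 to 0.586 over 10 adherent clusters and from 0.396 to 0.590 over 11 neurosphere clusters, above 0 in every one of them.

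Along Mt1, the mean of Mt2 rose in both cultures. In adherent cells it went from 2.27 ± 1.99 UMIs (SD over 726 cells) with 0 to 2 UMIs of Mt1 to 13.9 ± 8.08 (151 cells) with 21 or more. In neurosphere cells it went from 0.983 ± 1.33 (416 cells) to 8.25 ± 5.35 (238 cells). At each of the 5 ranges of Mt1 the neurosphere mean of Mt2 was below the adherent one, although the SDs over cells overlapped. Among cells with at least 10 UMIs of Mt1 and Mt2 together, Mt2 made up a median of 36.4% in adherent and 23.5% in neurosphere cells, with the 10th to 90th percentile at 20.0% to 57.7% and 9.09% to 41.2%.

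**Figure D4:**
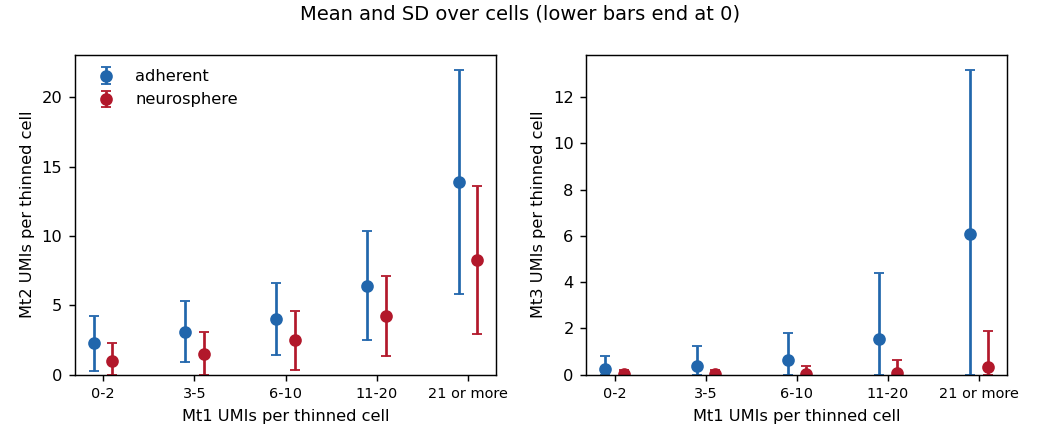
Mean UMIs of Mt2 (left) and Mt3 (right) per thinned cell, with the SD over cells, in 5 ranges of Mt1 UMIs (0 to 2, 3 to 5, 6 to 10, 11 to 20, and 21 or more) for adherent and neurosphere cells. Mt2 climbs with Mt1 in both cultures, from 2.27 to 13.9 and from 0.983 to 8.25 UMIs, and Mt3 climbs to 6.08 UMIs in adherent and 0.332 UMIs in neurosphere cells.

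In adherent cells, Mt3 went with the other metallothioneins. Its mean climbed from 0.237 ± 0.574 UMIs at the lowest to 6.08 ± 7.09 at the highest range of Mt1, and the share of cells with a UMI of Mt3 from 18.2% to 82.8%. The Spearman correlation was 0.300 with Mt1 and 0.324 with Mt2, the 2 highest among 5709 genes. In neurosphere cells, with few Mt3 UMIs, the values were 0.089 and 0.106 over all cells. Within the 3 neurosphere clusters with most Mt3 they were 0.149, 0.127 and 0.205 with Mt1 and 0.227, 0.103 and 0.227 with Mt2. Counts this sparse do not allow the cultures to be compared in this.

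Seen from the other side, the 345 adherent cells (7.73%) with at least 3 UMIs of Mt3 after thinning held 61.2% of its UMIs. They had a mean of 16.1 ± 13.4 UMIs of Mt1 and 8.88 ± 6.98 UMIs of Mt2, beside 5.63 ± 4.12 and 3.24 ± 2.51 in the 3077 cells with 0 UMIs of Mt3. A UMI of Slc30a4 was found in 36.2% of the first and 13.5% of the second. Their median depth before thinning was 9590 and 8611 UMIs and their median mitochondrial share 1.89% and 2.00%, so depth and mitochondrial share were close in the 2 sets. In neurosphere cells only 19 cells (0.453%) had at least 3 UMIs of Mt3. Those 19 had 26.9 ± 18.7 UMIs of Mt1 and 11.1 ± 4.95 of Mt2, beside 8.88 ± 6.70 and 2.78 ± 2.83 in 4081 cells with 0, and this small number rests on 1 library. Depth differed more here than in the adherent sets, with a median before thinning of 17828 UMIs in the 19 cells and 13305 UMIs in the 4081, and its part in the difference beyond the thinning was not tested.

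Vgf, which encodes a secreted neuropeptide precursor, crossed with Mt3 in adherent cells. It stood at 68.6 CPM in adherent cells against 1.22 CPM in neurosphere cells, and had a UMI in 40.9% of the adherent cells with at least 3 UMIs of Mt3 and 13.8% of those with 0.

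The genes outside the zinc lists whose counts ran closest to each metallothionein were named by rho. For Mt1 in adherent cells they were Lgals1 (0.255), the ferritin light chain Ftl1 (0.198), Cd63 (0.195), Lgals3 (0.177) and Ptma (0.151). For Mt1 in neurosphere cells they were the protease inhibitor Cstb (0.325), Lgals1 (0.318), Cst6 (0.308), the glycolytic enzyme Gapdh (0.302) and Ppia (0.285). The galectin gene Lgals1 was in both sets. Mt2 had Lgals3 (0.224), Ptma (0.205) and Lgals1 (0.202) first in adherent cells, and Lgals1 (0.326), Cst6 (0.315) and Cstb (0.294) first in neurosphere cells. Mt3 had AA467197 (0.242), Lgals3 (0.239) and Cd63 (0.224) first in adherent cells. The part of a gene's abundance in this order was not tested.

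A relation of Mtf1 with the genes it is known to drive was not detectable at this depth, with means under 1 UMI per cell. Its rho with Mt1, Mt2 and Mt3 ran from -0.018 to 0.015 in adherent and from -0.010 to 0.010 in neurosphere cells. Slc30a1 had rho of -0.011 to 0.022 and -0.013 to 0.008 with them, and Slc39a10 of -0.018 to 0.015 and -0.053 to -0.014. Small as they are, the neurosphere values of Slc39a10 put Mt1 6615th and Mt2 6626th of 6657 genes, where the lowest rho was -0.078. Slc30a4 stood apart from Mtf1, Slc30a1 and Slc39a10 in adherent cells, with rho of 0.164 with Mt3. Mt3 was its second closest gene of 5709, after Rtn4 (0.175). Within 10 adherent clusters that rho ran from -0.001 to 0.189, above 0 in 9. In neurosphere cells rho of Mt3 and Slc30a4 was 0.064 over all cells, and it was 0.181, 0.023 and -0.089 within clusters 5, 7 and 9, which held 346, 201 and 63 UMIs of Mt3. The other 8 neurosphere clusters held 4 to 19 UMIs of Mt3 each, too few for a rho within them to be read.

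Clusters were drawn from 2000 variable genes with all 29 zinc genes kept out, 11 in each culture, and are given by number and leading genes. A cluster's levels describe cells of 1 library and no cluster was tested against the rest. In adherent cells, Mt3 ran from 43.1 CPM (36.1 to 51.1) in cluster 7, led by Tex14, to 435 CPM (416 to 455) in cluster 1, a ratio of 10.1. Mt1 ran from 656 CPM (524 to 811) in cluster 10 to 1972 CPM (1931 to 2015) in cluster 1, and Mt2 from 509 CPM (394 to 648) to 1218 CPM (1186 to 1252) in the same clusters. Cluster 1 was thus the richest adherent cluster in all 3 metallothioneins at this resolution. At resolution 0.8 the richest of 9 clusters was a different one for each of them, and Mt3 reached 251 CPM, a ratio of 5.63 to the lowest cluster. Cluster 10, led by Lars2, was small, with 47 cells, a median of 2600 UMIs and a median mitochondrial share of 12.4%.

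Adherent cluster 1 held 636 cells. Its leading genes by ratio to the rest were Mt3, Slc30a4 and Ackr3, a scavenging chemokine receptor, although the zinc genes had no part in drawing it. Slc30a4 stood there at 107 CPM (97.8 to 118) and Vgf at 149 CPM. Cluster 5, with 552 cells and the mitosis genes Nusap1, Ccnf and G2e3 leading, came second for Mt3 at 301 CPM (286 to 316), with Slc30a4 at 75.2 CPM (68.1 to 82.9) and Vgf at 151 CPM. Cluster 3, led by Gm13889, Ube2c and Pcbd1, had 236 CPM (226 to 247) of Mt3 but 43.0 CPM (38.6 to 47.7) of Slc30a4. Clusters 1, 3 and 5 together were the source of most adherent Mt3 UMIs, with 25%, 25.8% and 21.5% of them. In the remaining adherent clusters of more than 47 cells, Slc30a4 ran from 23.9 to 42.3 CPM.

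In neurosphere cells, Mt3 was found mainly in 3 of the 11 clusters, the smallest of which depended on the clustering. Cluster 5, led by the interferon-response genes Ifit3 and Zbp1 and by S100a6, had 59.8 CPM (53.7 to 66.4) and 48.8% of the UMIs of Mt3. Cluster 7, led by Prss56, Fosl1 and Phlda2, had 25.3 CPM (21.9 to 29.0) and 28.3% of the UMIs. Cluster 9, led by Lgals1, Acsm1 and Hist1h2ap, had 16.9 CPM (13.0 to 21.6) and 8.89%. At resolution 0.8 only 2 of 8 clusters stood out, at 53.0 and 24.1 CPM beside 3.52 CPM in the next, and with zinc genes left in the clustering the third had 9.40 CPM from 18 UMIs. The other 8 clusters ranged from 1.17 CPM (0.320 to 3.0), from 4 UMIs in cluster 6, to 3.63 CPM (2.15 to 5.73) in cluster 1. Even the richest neurosphere cluster, at 59.8 CPM, was within the range of the poorer adherent clusters.

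Slc30a4 was highest in the neurosphere clusters that were richest in Mt3 as well. It stood at 82.9 CPM (76.7 to 89.5) in cluster 7 and 71.2 CPM (64.5 to 78.4) in cluster 5, beside 22.6 to 36.8 CPM in the other 9, cluster 9 included. At this resolution high Mt3 and high Slc30a4 met in adherent clusters 1 and 5 and in neurosphere clusters 5 and 7. At resolution 0.8 they met in 1 adherent cluster, with 251 CPM of Mt3 and 69.9 CPM of Slc30a4, while the cluster next in Mt3 (236 CPM) had 46.8 CPM of Slc30a4, little above the 44.5 and 43.7 CPM of others. In neurosphere cells a pair was seen at that resolution too, with 53.0 and 24.1 CPM of Mt3 and 69.0 and 70.9 CPM of Slc30a4. Adherent cluster 10 had a higher Slc30a4 value, 131 CPM, from 17 UMIs (76.4 to 210).

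Mt2 was lowest in neurosphere cluster 6, led by Enpp2, the myelin gene Mbp and Gm4876, at 285 CPM (267 to 303). Mt1 was low there too, at 1252 CPM (1215 to 1291), with an interval overlapping that of cluster 0, led by Depdc1b, Aspm and Rtkn2, at 1254 CPM (1233 to 1275). Mt1 was highest in cluster 9 at 2499 CPM (2448 to 2550) and Mt2 in cluster 5 at 801 CPM (778 to 825). These ranks changed with the clustering: with zinc genes left in, Mt1 was highest in cluster 5 at 2275 CPM and Mt2 in cluster 7 at 854 CPM. The part of Mt2 in the sum of Mt1 and Mt2 ran from 18.5% to 28.5% over neurosphere clusters and from 30.9% to 45.2% over adherent clusters, and the ranges did not overlap. The lower part of Mt2 in neurosphere cells was thus seen in each of the 11 clusters. Slc39a10 was highest in neurosphere cluster 10 at 62.7 CPM (51.0 to 76.3), led by Cox6a2 and the stress genes Nupr1 and Hmox1, beside 23.0 to 40.2 CPM in the other 10.

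**Figure D5:**
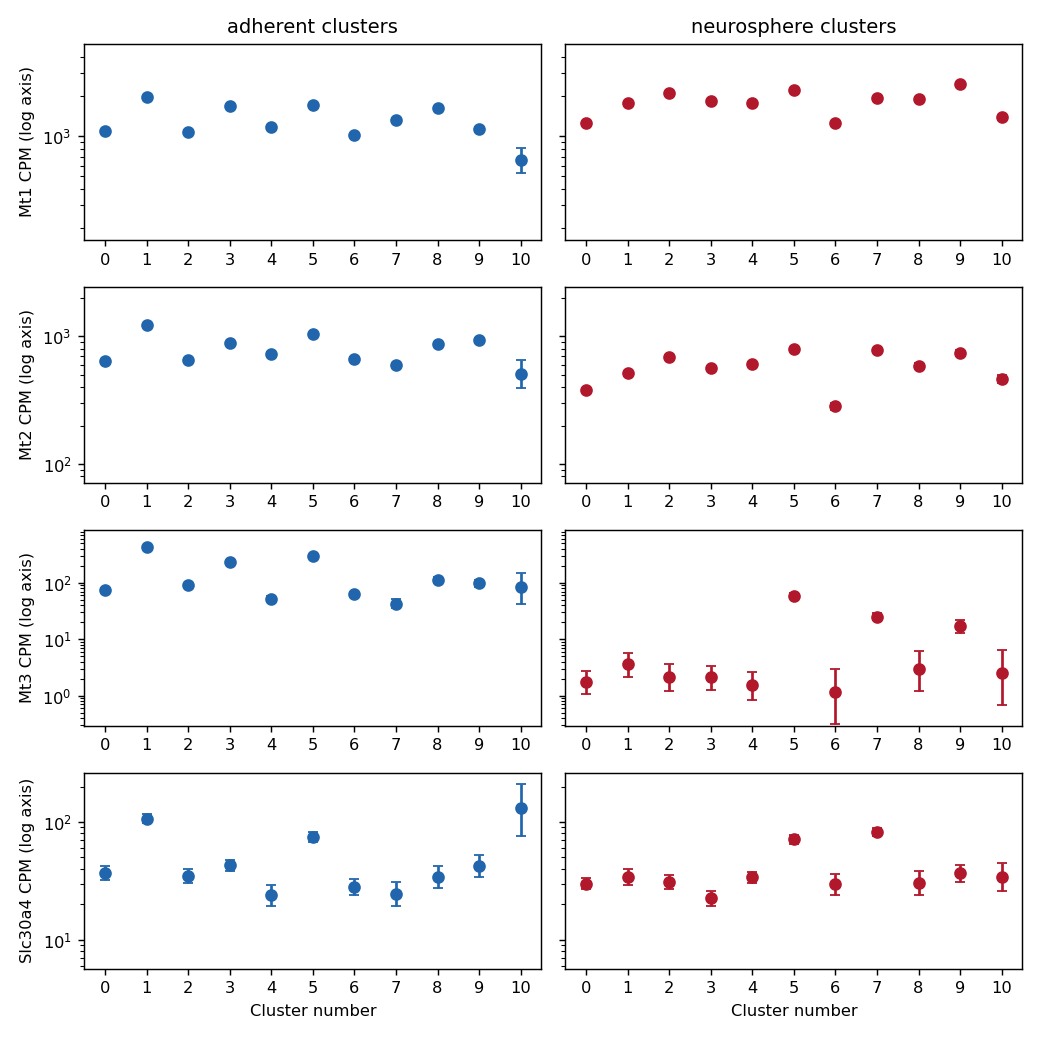
Levels of Mt1, Mt2, Mt3 and Slc30a4 in CPM (log axes, each row with its own range) in the 11 adherent and 11 neurosphere clusters, with 95% counting intervals; cluster numbers are not matched between cultures. Mt3 and Slc30a4 stand out together in adherent clusters 1 and 5 and in neurosphere clusters 5 and 7, and Mt3 is at 1.17 to 3.63 CPM in 8 neurosphere clusters.

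Some counts may share reads with other genes. The longest run of identical bases between annotated transcripts was 27 bases for Mt1 and Mt3 and 20 bases for Mt1 and Mt2 and for Mt2 and Mt3, so reads longer than these runs could tell the metallothioneins apart. Mtf1 overlaps the gene 1110065P20Rik on the opposite strand, which had 10584 and 9938 UMIs, and Mt2 overlaps the antisense gene Gm45774, with 26 and 81 UMIs. Slc30a1 and Slc30a4 also overlap a gene on the opposite strand, 1700034H15Rik (30 and 35 UMIs) and 4930417H01Rik (232 and 722 UMIs). Slc39a10 overlaps the noncoding gene Gm28151 on its own strand (2 and 28 UMIs). The strand setting of the counting was not given in the sources used here, so reads of these pairs cannot be told apart from the tables alone.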

How the data were processed

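The files the authors deposited hold whole-number UMI counts, not normalized, for every gene in each called cell. Per the submitters' processing notes, Cell Ranger 7.0.1 and mm10 were used. The annotation and the setting for introns were not given in the sources used here. The 13 mitochondrial (mt-) and 101 ribosomal protein (Rps, Rpl) genes were removed, then cells with under 1000 UMIs or under 1250 (adherent) or 2250 (neurosphere) genes. The study's text states slightly more kept cells in both cultures. No doublet caller was run. Cells over the 95th percentile of UMIs were left out as an alternative.

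The UMIs of a gene in the kept cells were scaled to CPM by the total over all remaining genes (46290996 for adherent, 64943938 for neurosphere cells). With 1 library per culture there was no test. Log2 ratios have exact conditional, CPM exact Poisson and shares exact binomial (Clopper-Pearson) 95% intervals, which cover counting error only, and a count of 0 was given a limit of 3 counts. The intervals, thinning and rank correlations were tested on simulated data. Clusters came from Seurat 5.3.0 (R 4.3.3) with 17 PCs (adherent) and 18 PCs (neurosphere), at resolution 1.0. Leading genes had a UMI in at least 25% of a cluster's cells and the largest log2 ratio to the rest, with 1 CPM added. TMM scaling used edgeR 4.0.16. All else ran in Python 3.11.15 (scipy 1.17.1, numpy 2.4.6, matplotlib 3.10.9, pandas 2.3.3). Of 32285 gene identifiers, 32158 matched GENCODE, and all 7 members matched a RefSeq promoter by symbol.

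The members and lists were chosen with earlier results of these data known. The text names all members, any gene of the zinc lists, the 2 highest and 2 lowest genes of the other lists, the genes closest to each metallothionein by rho (up to 5 in a library), protein-coding neighbours within 100 kb, Vgf, and up to 3 leading genes of a cluster. The astrocyte markers, the overlapping genes, and Rtn4 were named after their values were seen. Of 8 immune cell markers, 2 had at least 50 UMIs (Cd68 and Cd14), and the summed level of all 8 was 15.6 CPM in adherent cells against 10.1 CPM in neurosphere cells.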

Additional observations from a re-analysis of the deposited data

Results flagged for a closer look

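The barcodes left out by the cell filter entered no comparison, and all 3 metallothioneins were counted in them above the level that 3 counts would give (7.65 CPM in adherent and 5.22 CPM in neurosphere barcodes). The 713 left-out adherent barcodes had a median mitochondrial share of 48.8% and stood at 995 CPM for Mt1, 696 CPM for Mt2 and 112 CPM for Mt3 (81.6 to 151), beside 1399, 819 and 164 CPM in kept cells. The 675 left-out neurosphere barcodes had a median mitochondrial share of 87.0% and stood at 1627 CPM for Mt1, 623 CPM for Mt2 and 31.3 CPM for Mt3 (18.6 to 49.5, from 18 UMIs), beside 1814, 592 and 10.9 CPM in kept cells.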

How the results depend on the processing

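No paired analysis was possible because each culture had 1 library, and no replicate could be left out. Of 125 values recomputed under an alternative, 97 stayed within the counting interval or tolerance set for them and 28 did not. No member more than 2-fold apart changed direction or came within 2-fold. Scaling shifted every log2 fold change. With TMM scaling, the log2 fold changes were 0.16 for Mt1, -0.69 for Mt2, -4.12 for Mt3, 0.18 for Mtf1, -0.40 for Slc30a4 and 0.045 for Slc39a10, and 1 zinc gene in place of 3 was more than 2-fold higher. With mitochondrial and ribosomal genes in the total, they were 0.59, -0.25, -3.69, 0.62, 0.032 and 0.48 for the same genes. Thinning gave 0.39 for Mt1, -0.50 for Mt2 and 0.27 for Mtf1, and shares of the metallothionein UMIs of 6.53% for adherent Mt3 and of 75.6% and 24% for neurosphere Mt1 and Mt2. Without cells over the 95th percentile of UMIs, Mt1 stood at 0.42, and Mt2 and Mt3 at 34.9% and 6.55% of the adherent metallothionein UMIs. With a minimum of 1 UMI in place of 50, 8 zinc genes were more than 2-fold higher and 5 more than 2-fold lower. The genes added this way had at most 12 UMIs in a library, some of them 0 in the other. Pearson's r of log values without thinning was 0.557 and 0.706 for Mt1 and Mt2 in adherent and neurosphere cells, and 0.402 for Mt1 and Mt3 in adherent cells. The highest over the lowest cluster level of Mt3 was 5.63 in adherent cells at resolution 0.8, which gave 9 clusters, and 77.7 in neurosphere cells with the zinc genes left in the clustering. The causes were not tested. Leaving out the barcodes found in both libraries was added after the data were seen. Depth limits Mt4, Slc30a1, neurosphere Mt3 and the 7 zinc genes under 50 UMIs.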
